A study of Mus musculus with 4 samples.

Results

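A group of 9 genes of the actin and myosin system was followed across 4 populations of effector T helper cells of the mouse sorted by CD30, the TNF receptor superfamily member encoded by Tnfrsf8. The 9 genes were Myo6, Dab2, Mylk, Myh9, Myo1f, Fscn1, Pdlim5, Basp1 and Ermn. All of their 32 probe sets were taken, out of 34945 probe sets with a single gene symbol that stood for 18193 genes. The genes had been chosen with the CD30 and lineage ratios of these same arrays in view, so their ratios are given as a description and without a test. The brightest probe set of a gene, by its mean over the arrays, stood for the gene. The other probe sets of a member are given beside it, some by their ratios or as a count only.

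The arrays held RNA of CD30high Th17, CD30low Th17, CD30high Th1 and CD30low Th1 cells, with 1 Affymetrix 3' expression array per population. Splenic CD4+ T cells had been cultured for 6 days. Th17 cells had been grown with IL-1beta, IL-6 and IL-23 while IL-4 and IFN-gamma were blocked by antibody, and Th1 cells with IL-12 and IL-2 while IL-4 was blocked. By the methods, T cells with a transgenic receptor for ovalbumin had been stimulated with its peptide and irradiated splenocytes depleted of T cells. The methods call the starting cells naive and CD62Lhigh. The labels give CD44low CD62Lhi cells for both CD30high samples but CD44low CD62Llow cells for both CD30low samples, so by the labels the gate and the starting cells cannot be told apart. Mice of the study were 6 to 12 weeks old by the methods, and the transgenic strain used for the arrays was not given in the sources used here.

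Values are linear array signals. Signals below 100 were treated as background and raised to 100 before a ratio was taken, so that a fold against such an array is a lower bound. Under the fold rule a gene was called when the brighter of the arrays compared reached 300 and was 2-fold or more above the dimmer one. With 1 array per population no difference has a replicate error, and the spread between cultures is unknown. Within the array data, precision could be judged only by how well the probe sets of 1 gene matched. Over 2462 genes with several bright probe sets, the SD of a log2 ratio between the sets of 1 gene was 0.17 for CD30 in Th17 cells, 0.21 for CD30 in Th1 cells, 0.27 for the lineage among CD30high cells and 0.26 for the lineage among CD30low cells. A signal from bulk RNA cannot tell fewer expressing cells from less RNA per cell. Signals of different probe sets were set against each other only to choose the brightest set or gene and in the sums of marker lists.

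T cells move and hold their shape through actin filaments, which lie under the membrane and are crossed by myosin motors. Class II myosins pull filaments against each other and contract the rear of a crawling cell once their light chains are phosphorylated, class I myosins tie filaments to the membrane, and myosin VI is known for walking toward the pointed end of the filament, the opposite direction to other myosins. Bundling proteins, PDZ-LIM scaffolds and lipid-binding proteins of the cell cortex set where filaments are gathered and attached.

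The lineages were clear in the arrays, whereas the probe set for CD30 itself was dim. Tnfrsf8 had a signal of 132 in CD30high Th17 cells against 34.9 in CD30low Th17 cells, and of 51.1 in CD30high Th1 cells against 13.3 in CD30low Th1 cells, so 3 of its 4 values lay at background. Il17a, the Th17 cytokine, had 14443 and 1398 in the CD30high and CD30low Th17 cells and under 100 in both Th1 populations. Ifng, the Th1 cytokine, had 76.0 and 106 in the CD30high and CD30low Th17 cells against 3423 and 2506 in the CD30high and CD30low Th1 cells. The Y-linked gene Eif2s3y was below 10 on both Th17 arrays and at 1640.0 and 1784 on the CD30high and CD30low Th1 arrays. The X-linked gene Xist was bright on all 4, at 22613 and 22350 on the CD30high and CD30low Th17 arrays. On the CD30high and CD30low Th1 arrays it had 16222.5 and 14620. Y-linked RNA thus differed between the lineages, and the part of this in the lineage ratios was not tested.

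Promoter windows of the members were read from RefSeq (GRCm38.p6), from 250 bases before to 50 bases after an annotated start, and matched 9 of 9 members with 11 windows. The window of Myo6, the member that was lower in CD30high cells by the widest margin, is shown beside those of Mylk, Basp1 and Ermn, which were higher in CD30high Th17 cells. Capitals mark matches to a motif on either strand. They lie in the Myo6 window chr9:80164784-80165083 (plus strand), the Mylk window chr16:34784700-34784999 (plus strand, at a start inside the annotated gene), the Basp1 window chr15:25413715-25414014 (minus strand) and the Ermn window chr2:58052815-58053114 (minus strand).
Myo6: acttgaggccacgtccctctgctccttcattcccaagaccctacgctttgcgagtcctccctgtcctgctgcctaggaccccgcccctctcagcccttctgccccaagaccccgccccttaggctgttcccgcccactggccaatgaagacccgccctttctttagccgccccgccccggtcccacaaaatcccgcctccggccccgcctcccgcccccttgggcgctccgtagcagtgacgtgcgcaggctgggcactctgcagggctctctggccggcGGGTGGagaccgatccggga
Mylk: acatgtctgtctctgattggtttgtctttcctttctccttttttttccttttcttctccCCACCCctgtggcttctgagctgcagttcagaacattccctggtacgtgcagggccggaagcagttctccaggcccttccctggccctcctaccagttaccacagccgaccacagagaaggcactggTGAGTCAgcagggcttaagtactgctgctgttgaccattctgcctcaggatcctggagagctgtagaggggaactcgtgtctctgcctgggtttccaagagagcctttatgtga
Basp1: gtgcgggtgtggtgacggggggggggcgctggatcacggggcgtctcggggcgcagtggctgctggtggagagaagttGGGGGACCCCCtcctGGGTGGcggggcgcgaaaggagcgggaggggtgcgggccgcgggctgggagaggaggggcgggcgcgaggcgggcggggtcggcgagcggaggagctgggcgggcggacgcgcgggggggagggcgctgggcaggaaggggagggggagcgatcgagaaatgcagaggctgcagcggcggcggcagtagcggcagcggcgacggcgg
Ermn: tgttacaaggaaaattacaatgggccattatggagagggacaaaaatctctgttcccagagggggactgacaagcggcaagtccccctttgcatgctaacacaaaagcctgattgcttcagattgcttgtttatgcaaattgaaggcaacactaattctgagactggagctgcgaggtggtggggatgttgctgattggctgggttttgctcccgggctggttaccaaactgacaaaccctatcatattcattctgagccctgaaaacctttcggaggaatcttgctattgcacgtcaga
The 5 motifs searched on both strands were the AP-1 site TGANTCA, the E-box CANNTG, the CACCC box CCACCC bound by KLF factors, the CArG box of serum response factor and the NF-kappaB site, the last pair by their usual consensus. The share of all 32851 RefSeq windows of the same length with a match was 7.81% for AP-1, 72.3% for the E-box, 31.5% for the CACCC box, 1.63% for the CArG box and 4.51% for the NF-kappaB site. None of the 4 windows shown held an E-box. The Myo6 window held 1 CACCC box, starting at +31. The Mylk window held 1 CACCC box at -191 and 1 AP-1 site at -64. The Basp1 window held a CACCC box at -157 and a pair of overlapping NF-kappaB matches at -172 and -171. The Ermn window held no match to any of the 5, and no member window held a CArG box. GC content was 68.3% for Myo6, 53.3% for Mylk, 78.0% for Basp1 and 47.0% for Ermn, against a median of 52.7% over all windows. A match describes letters in a window and is not evidence of binding.

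In Th17 cells, 8 of the 9 members differed past the fold rule by their brightest probe set. Dab2, Mylk, Myo1f, Fscn1, Basp1 and Ermn were higher in CD30high cells (6 of 9, against 3.94% of 7786 genes tested), and Myo6 and Pdlim5 were lower (2 of 9, against 3.66%). In Th1 cells 7 members reached a signal of 300, Fscn1, Basp1 and Ermn were higher in CD30high cells (3 of 7, against 0.794% of 7813 genes tested) and Myo6 and Pdlim5 were lower (2 of 7, against 0.486%). The members were picked on these contrasts, and nothing is read from their shares. With each array centred on its median instead, the split over all genes in Th1 cells was 25 higher and 118 lower, in place of 62 and 38. By probe set, 12 of the 32 were higher and 4 were lower in CD30high Th17 cells, and 3 were higher and 2 lower in CD30high Th1 cells. The share of all probe sets past the rule was not computed, and nothing is read from these counts. Of the 32, 24 reached a signal of 100 on at least 1 array and 20 reached 300.

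**Figure D1:**
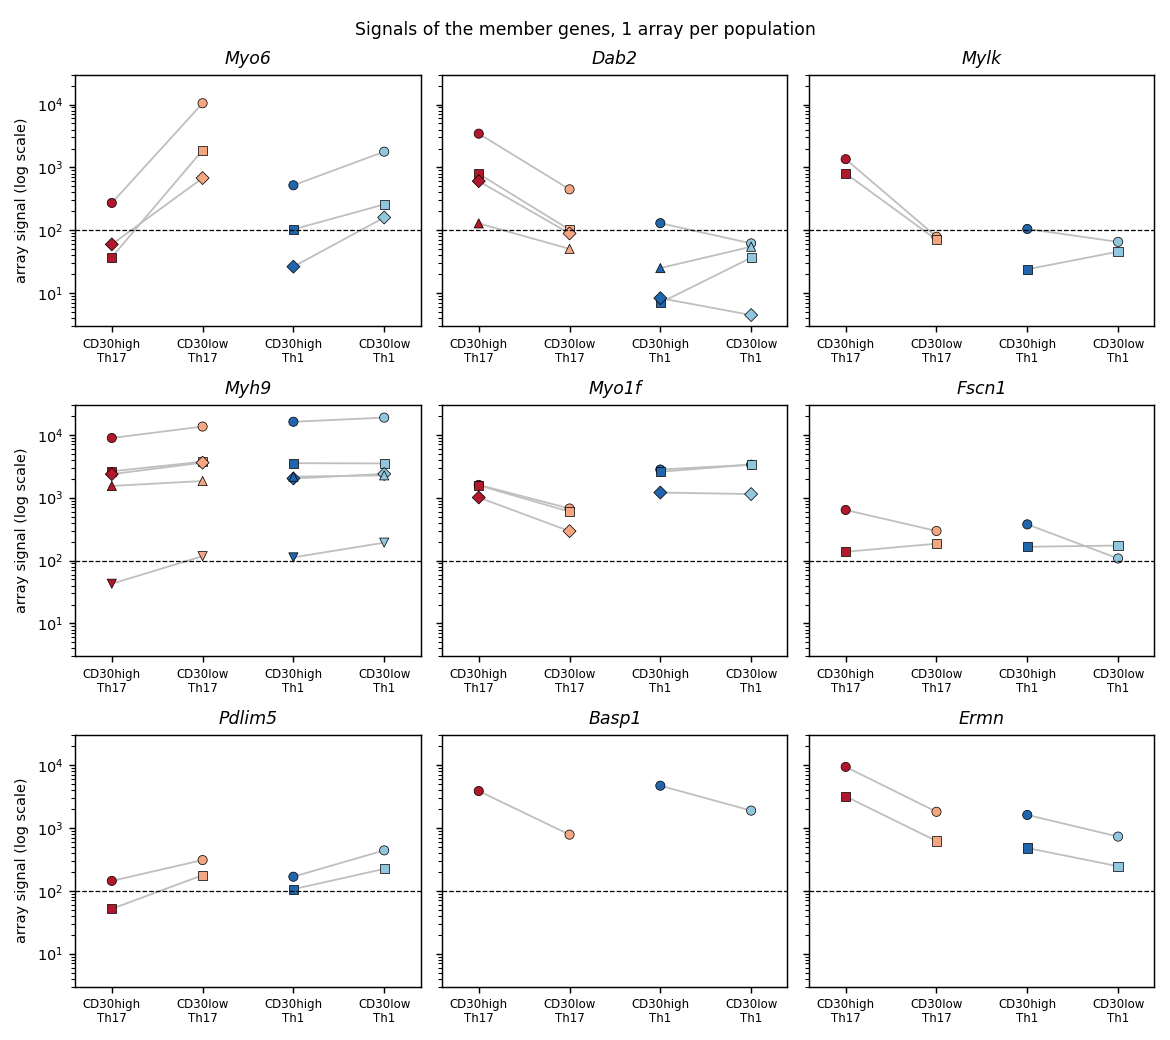
Array signal (log scale) of each member gene on the CD30high Th17, CD30low Th17, CD30high Th1 and CD30low Th1 arrays, 1 array per population, with 1 symbol per probe set that reaches 100, lines joining the CD30high and CD30low arrays of a lineage, and a dashed line at 100. All 3 Myo6 probe sets lie lower in CD30high than in CD30low cells of both lineages, Basp1 and Ermn lie higher in both, and Mylk and the 3 brighter Dab2 probe sets stand high on the CD30high Th17 array.

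Myo6 encodes myosin VI, the pointed-end motor that carries endocytic vesicles (chr9:80164976-80311729, GRCm38.p6). Its brightest probe set, 1433942_at, gave 273 in CD30high Th17 cells, 10494 in CD30low Th17 cells, 520.4 in CD30high Th1 cells and 1782 in CD30low Th1 cells. Both CD30high arrays thus lay below both CD30low arrays. The signal was 38.5-fold lower in CD30high than in CD30low Th17 cells, a log2 ratio of -5.27. It was 3.42-fold lower in CD30high than in CD30low Th1 cells, a log2 ratio of -1.78. The log2 ratio in Th17 cells minus that in Th1 cells was -3.49. This difference has no replicate error and was not tested.

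The other Myo6 probe sets ran the same way. Probe set 1421120_at gave 37.5, 1880.0, 104 and 258 in CD30high Th17, CD30low Th17, CD30high Th1 and CD30low Th1 cells. It was at least 18.8-fold lower in CD30high Th17 cells, and 2.49-fold lower in CD30high Th1 cells at signals under 300. Probe set 1435559_at gave 59.9, 678, 26.5 and 160.1 in the same order, at least 6.78-fold lower in CD30high Th17 cells and at least 1.60-fold lower in CD30high Th1 cells. All 3 probe sets passed the fold rule in Th17 cells and 1 did so in Th1 cells. The spread of the 3 Th17 ratios follows in part from the floor, since both dimmer sets lay at background in CD30high Th17 cells.

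By lineage, Myo6 was higher in Th17 than in Th1 cells within the CD30low gate. The brightest probe set was 5.89-fold higher in CD30low Th17 than in CD30low Th1 cells (10494 against 1782), and the other sets were 7.28-fold and 4.24-fold higher. Within the CD30high gate the brightest set was 1.91-fold lower in Th17 than in Th1 cells (273 against 520.4), short of the rule, and both other sets were at or near background on the 2 arrays.

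The genes whose pattern over the 4 arrays lay closest to Myo6 were found by the Euclidean distance of log2 signals centred on each gene's mean, among 8226 genes. They were Rtp4 at 1.67, Pdlim4 at 1.80, Drc1 at 1.84, Ccn3 at 1.85 and Tmem158 at 2.02. Rtp4, a receptor chaperone also known as an interferon-induced gene, gave 7.69, 842, 127 and 503 in CD30high Th17, CD30low Th17, CD30high Th1 and CD30low Th1 cells. Pdlim4, a PDZ-LIM adaptor of actin filaments, gave 11.9, 690.1, 12.5 and 226. Both were low in the 2 CD30high populations and highest in CD30low Th17 cells, as Myo6 was. Drc1, Ccn3 and Tmem158 were also highest in CD30low Th17 cells, but their Th1 signals were less than 2-fold apart. In CD30high and CD30low Th1 cells Drc1 gave 74.4 and 120, Ccn3 226 and 198, and Tmem158 505 and 581. The nearest member was Pdlim5, at 3.18, and the farthest were Dab2 at 6.55 and Mylk at 6.60. With 4 arrays many patterns lie close to one another, and the distances carry no test.

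Dab2 encodes Disabled-2, a clathrin adaptor of endocytosis that binds the tail of myosin VI (chr15:6299788-6440715). Probe set 1420498_a_at gave 3444 in CD30high Th17 cells, 449 in CD30low Th17 cells, 130.1 in CD30high Th1 cells and 62.1 in CD30low Th1 cells. It was 7.67-fold higher in CD30high than in CD30low Th17 cells, whereas both Th1 arrays were near background. The next 2 sets behaved alike. Set 1423805_at gave 791 and 102 in CD30high and CD30low Th17 cells, a 7.74-fold difference, and under 100 in both Th1 populations. Set 1429693_at gave 605 and 89.3, at least 6.05-fold higher in CD30high Th17 cells, and under 10 in both Th1 populations. The dim set 1430604_a_at gave 129 in CD30high Th17 cells and under 100 in the others.

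Dab2 thus stood opposite to Myo6 in Th17 cells, at log2 ratios of 2.94 and -5.27. Among CD30high cells it was 26.5-fold higher in Th17 than in Th1 cells, and among CD30low cells at least 4.49-fold higher by its brightest set, while set 1423805_at gave 1.02-fold there at background and, with the probe sets averaged, the log2 ratio of 0.55 fell short of the rule. The 6 other cargo adaptors of myosin VI, among them the autophagy receptor Tax1bp1, reached 100 in Th17 cells and none passed the fold rule in either lineage. Their median log2 ratio was 0.14 in Th17 and -0.25 in Th1 cells, against 0.017 and 0.0003 over all genes. Tax1bp1 gave 6421 and 4460 in CD30high and CD30low Th17 cells and 7344 and 5527 in CD30high and CD30low Th1 cells. Of 13 clathrin adaptors and endocytic proteins that reached 100 in Th17 cells, 10 reached 300 and none passed the rule either. Over all genes 3.94% were higher and 3.66% lower in Th17 cells, so nothing is read from these few genes. The clathrin light chain Clta gave 9252 and 9513 in CD30high and CD30low Th17 cells.

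Mylk encodes myosin light chain kinase, which responds to calcium and calmodulin and phosphorylates the regulatory light chain of myosin II (chr16:34745199-35002436). Probe set 1425506_at gave 1355 in CD30high Th17 cells, 79.1 in CD30low Th17 cells, 105 in CD30high Th1 cells and 65.6 in CD30low Th1 cells. Probe set 1425505_at gave 802, 70.9, 24.0 and 45.9 in the same order. Mylk was thus detected well above background on 1 array of 4. It was at least 13.6-fold higher in CD30high than in CD30low Th17 cells by the brighter set and at least 8.02-fold higher by the other. The log2 bound of the brighter set moved with the floor, 3.76 at a floor of 100 against 4.10 at 50 and 2.76 at 200. In Th1 cells it had no measurable ratio. Its last set, 1425504_at, stayed below 100 on all arrays. Among CD30high cells Mylk was 12.9-fold higher in Th17 than in Th1 cells.

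The genes closest to Mylk by the same distance were Dcn at 0.59, Ido1 at 0.70, Ankrd33b at 0.75, Zc3h12c at 0.84 and Timp1 at 0.87. Ido1 encodes a tryptophan-degrading enzyme and Timp1 an inhibitor of metalloproteinases. Dcn encodes the matrix proteoglycan decorin, which is best known from fibroblasts. The fibroblast markers summed to 7795 in CD30high and 1110.1 in CD30low Th17 cells. In CD30high and CD30low Th1 cells they summed to 341 and 319, with all 8 markers below 100 on both arrays. Lum and Dcn made up nearly all of the CD30high Th17 sum, at 6697 and 967. In CD30low Th17 cells they gave 768 and 127. The other 6 of the 8 markers, among them Col1a1, Col1a2, Col3a1 and Pdgfra, were below 100 on all 4 arrays. The smooth muscle markers summed to 753, 203, 388 and 263 in CD30high Th17, CD30low Th17, CD30high Th1 and CD30low Th1 cells. Most of the sum in CD30high Th17 cells came from Myh11, the smooth muscle myosin heavy chain, which ran with Mylk at 587, 52.9, 33.3 and 32.0 in the same order. Tagln, Cnn1 and Myocd were below 100 on all arrays, and Acta2 gave 115, 64.6, 187 and 78.5. The part of either cell type in the Mylk signal was not tested beyond these values.

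Of the myosin light chains and their other kinases, 8 genes reached 100, and 4 reached 300 in Th17 and 5 in Th1 cells. The 8 genes did not share the Mylk pattern. Their median log2 ratio was -0.29 in Th17 and -0.23 in Th1 cells. Myl12b, a regulatory light chain of nonmuscle myosin II, gave 11490.5 and 14005 in CD30high and CD30low Th17 cells and 15808 and 21301 in CD30high and CD30low Th1 cells, short of the rule in both. The 1 gene past the rule was Mylip, a ubiquitin ligase named for its binding to the light chain and known for degrading the LDL receptor. It gave 129 and 446 in CD30high and CD30low Th17 cells, 3.46-fold lower, and 1286 and 2641 in CD30high and CD30low Th1 cells, 2.05-fold lower. Over all genes 3.66% were lower in Th17 and 0.486% in Th1 cells.

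**Figure D2:**
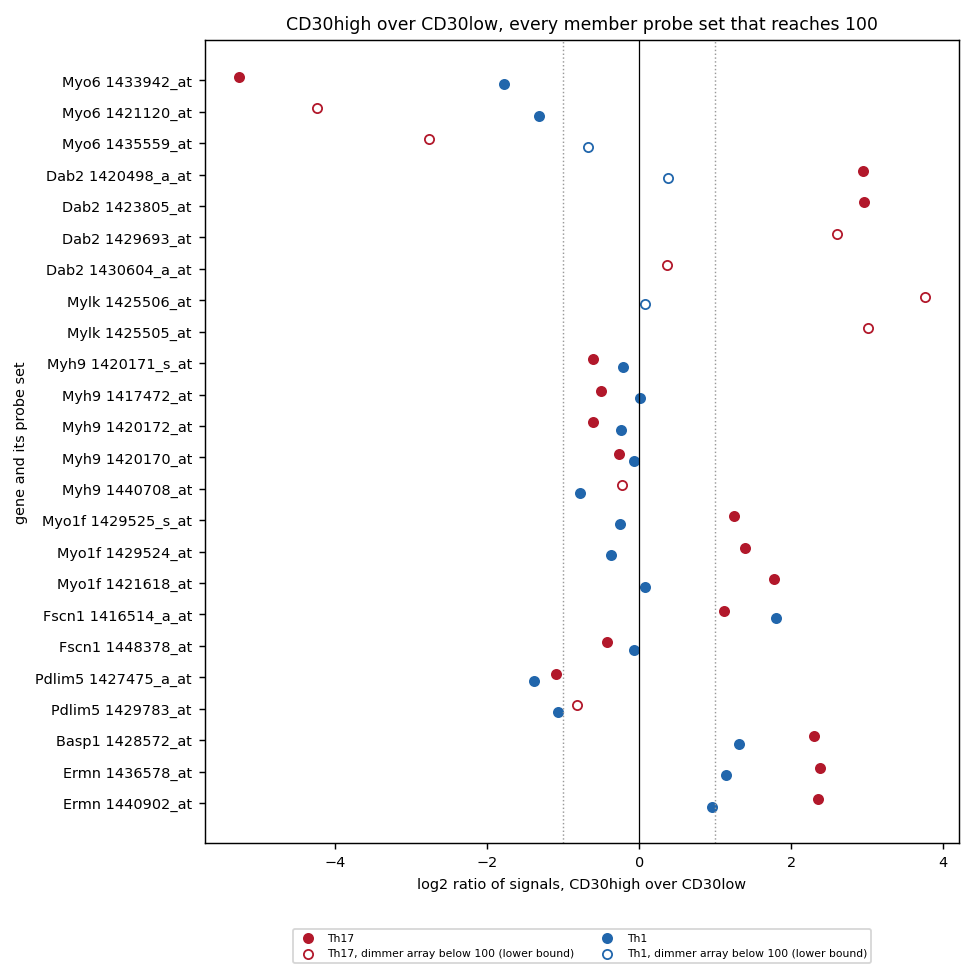
Log2 ratio of CD30high over CD30low signals for every member probe set that reaches 100, in Th17 (red) and Th1 cells (blue), with hollow points where the dimmer array lay below 100 and the ratio is a lower bound, and dotted lines at 2-fold. The Th17 ratios of Myo6 lie between -5.27 and -2.76, the Myh9 ratios stay within 2-fold in both lineages, and the 3 Myo1f sets pass 2-fold in Th17 cells only.

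Myh9 encodes the heavy chain of nonmuscle myosin IIA, the main contractile myosin of T cells (chr15:77760585-77842175). Its brightest probe set, 1420171_s_at, gave 8882 in CD30high Th17 cells, 13500.4 in CD30low Th17 cells, 16088 in CD30high Th1 cells and 18726 in CD30low Th1 cells. Set 1417472_at gave 2625, 3726, 3532 and 3499.5 in the same order. The dim set 1440708_at gave 42.8, 118, 112 and 193 in that order. By the 4 other sets the gene was bright on every array, and no probe set passed the fold rule in any comparison. The 4 sets above 1000 had log2 ratios of -0.60, -0.51, -0.61 and -0.26 in Th17 cells, all below 0, and of -0.22, 0.01, -0.24 and -0.07 in Th1 cells. The lineage ratios disagreed between the sets, at -0.86, -0.43, 0.23 and -0.49 among CD30high cells, so its direction by lineage was not settled.

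Myo1f encodes a class I myosin found mostly in leukocytes (chr17:33555707-33607764). Set 1429525_s_at gave 1595 in CD30high Th17 cells, 672 in CD30low Th17 cells, 2799.9 in CD30high Th1 cells and 3340.3 in CD30low Th1 cells. Sets 1429524_at and 1421618_at gave 1567 and 1007 in CD30high Th17 cells against 598 and 293 in CD30low Th17 cells. The CD30low Th17 array was the lowest of the 4 for every set. The 3 sets were 2.37-fold, 2.62-fold and 3.43-fold higher in CD30high than in CD30low Th17 cells. In Th1 cells their log2 ratios were -0.25, -0.38 and 0.08, none past the rule. Among CD30low cells the 3 sets were 4.97-fold, 5.60-fold and 3.89-fold lower in Th17 than in Th1 cells, the reverse of Myo6, whereas among CD30high cells the log2 ratios of -0.81, -0.72 and -0.26 were within the rule.

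Other myosin heavy chains mostly fell short of the rule between the gates. In Th17 cells 11 of them reached 100 and 8 reached 300, and 2 passed the rule as higher, against 3.94% of all genes. The leukocyte myosin Myo1g gave 4757 and 4097 in CD30high and CD30low Th17 cells. Myo10, a filopodial motor, gave 3139 in CD30high Th17 cells, 1089 in CD30low Th17 cells, 1071 in CD30high Th1 cells and 820.2 in CD30low Th1 cells. It was 2.88-fold higher in CD30high than in CD30low Th17 cells, and other sets gave 2.96-fold and 3.10-fold. Myh11, which is also 1 of the 6 smooth muscle markers and whose signals are given with Mylk, was at least 5.87-fold higher in CD30high than in CD30low Th17 cells (587 against 52.9). Its other set stayed below 100 throughout.

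Fscn1 encodes fascin, which bundles actin in filopodia and is best known in mature dendritic cells (chr5:142960355-142973189). Set 1416514_a_at gave 637 in CD30high Th17 cells, 295 in CD30low Th17 cells, 376 in CD30high Th1 cells and 108 in CD30low Th1 cells. It was 2.16-fold higher in CD30high than in CD30low Th17 cells and 3.48-fold higher in CD30high than in CD30low Th1 cells. The second set went against it. Set 1448378_at gave 138, 186, 166 and 173 in CD30high Th17, CD30low Th17, CD30high Th1 and CD30low Th1 cells, log2 ratios of -0.43 and -0.07, and the other 2 sets stayed below 30 on all arrays. With the sets averaged the log2 ratio was 0.34 in Th17 and 0.87 in Th1 cells and neither call held, so the Fscn1 calls rest on 1 probe set. All 6 dendritic cell markers, among them Flt3, Itgax and Zbtb46, were below 100 on all 4 arrays. The list held no marker picked for maturation, and the part of dendritic cells in the Fscn1 signal was not tested. Of 11 other bundling and cross-linking proteins that reached 100 in Th17 cells, 10 reached 300. None of the 10 passed the rule, against 3.94% higher and 3.66% lower over all genes. In Th1 cells 12 of these proteins reached 100 and 10 reached 300, and 1 passed the rule as higher, against 0.794% of all genes. This was Eps8, an actin-capping and bundling protein, at 1892 in CD30high and 893 in CD30low cells. Its other sets gave only 1.35-fold and 1.75-fold.

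Pdlim5 encodes a PDZ-LIM scaffold that binds alpha-actinin and protein kinase C (chr3:142239585-142395719). Set 1427475_a_at gave 143 in CD30high Th17 cells, 308 in CD30low Th17 cells, 167 in CD30high Th1 cells and 438 in CD30low Th1 cells. It was 2.14-fold lower in CD30high than in CD30low Th17 cells and 2.62-fold lower in CD30high than in CD30low Th1 cells, so the gates differed the same way in both lineages. Set 1429783_at ran alike at 51.6, 177, 106 and 223 but under the signal limit, and 5 further sets were below 100 on all arrays. These signals lay close to both limits. The Th17 call was lost with the probe sets averaged, at a log2 ratio of -0.96 in place of -1.10, and with the floor at 200, at -0.62.

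A pair of genes from the list of PDZ-LIM proteins and actinin partners were also lower in CD30high Th17 cells. Pdlim4 gave 11.9 in CD30high and 690.1 in CD30low Th17 cells, at least 6.90-fold lower, and 12.5 in CD30high and 226 in CD30low Th1 cells, at least 2.26-fold lower at a signal under 300. Evl, an Ena/VASP protein that promotes filament growth, gave 1741 in CD30high and 3496 in CD30low Th17 cells, 2.01-fold lower, and its other sets gave 2.39-fold, 2.11-fold and at least 1.76-fold. In Th1 cells Evl gave 2329.8 in CD30high and 4275 in CD30low cells, 1.84-fold lower and short of the rule, though 1 of its other sets was 2.08-fold lower. Lpp, a LIM protein of focal adhesions, went the other way at 4830.2 in CD30high and 1596 in CD30low Th17 cells. It was 3.03-fold higher there, and all 8 of its probe sets gave between 2.08-fold and 3.27-fold. In Th1 cells Lpp gave 1273 in CD30high and 1369.6 in CD30low cells. Of the 10 genes of this list that reached 100 in Th17 cells, 9 reached 300, and 1 was thus higher and 2 were lower past the rule. Over all genes tested 3.94% were higher and 3.66% lower. The median log2 ratio of the 10 was -0.27.

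Basp1 encodes a lipid-binding protein of the cell cortex that sequesters PIP2 and is best known from growing axons (chr15:25363277-25413764). Its only probe set, 1428572_at, gave 3848 in CD30high Th17 cells, 780.2 in CD30low Th17 cells, 4678 in CD30high Th1 cells and 1879.8 in CD30low Th1 cells. Both CD30high arrays lay above both CD30low arrays. The signal was 4.93-fold higher in CD30high than in CD30low Th17 cells and 2.49-fold higher in CD30high than in CD30low Th1 cells. By lineage it was 2.41-fold lower in Th17 than in Th1 cells within the CD30low gate and within 1.22-fold in the CD30high gate. No second probe set was there to compare.

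Basp1 shares its function with GAP43 and the MARCKS proteins, which also bind PIP2 and actin at the membrane. All 3 of these relatives were higher in CD30high than in CD30low Th17 cells, against 3.94% of all genes tested. The list was chosen with earlier results of these data known, and nothing is read from this share. Marcksl1 gave 6157 in CD30high Th17 cells, 1212 in CD30low Th17 cells, 211 in CD30high Th1 cells and 105 in CD30low Th1 cells, 5.08-fold higher in CD30high Th17 cells. Its other sets gave 5.56-fold, 4.37-fold and 2.25-fold. Gap43 gave 2678 in CD30high Th17 cells, 682 in CD30low Th17 cells, 229.8 in CD30high Th1 cells and 107 in CD30low Th1 cells, 3.93-fold higher in CD30high Th17 cells by its 1 set. Marcks gave 2488 in CD30high Th17 cells, 805 in CD30low Th17 cells, 1296 in CD30high Th1 cells and 770.4 in CD30low Th1 cells, 3.09-fold higher in CD30high Th17 cells, with 5 of its 7 sets between 2.37-fold and 3.65-fold and both others near 1. In Th1 cells their log2 ratios were 1.00 for Marcksl1, 1.10 for Gap43 and 0.75 for Marcks. None of the 3 passed the rule there, and the signals of Marcksl1 and Gap43 were under 300. The other Marcksl1 sets gave at least 1.53-fold, 1.10-fold and 1.47-fold in Th1 cells, with the CD30low array below 100. The median of the list was 1.97 in Th17 and 1.00 in Th1 cells. The 4 proteins are known from neurons, and the lineage split of Marcksl1 and Gap43, high in Th17 and near background in Th1 cells, was not seen for Basp1.

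**Figure D3:**
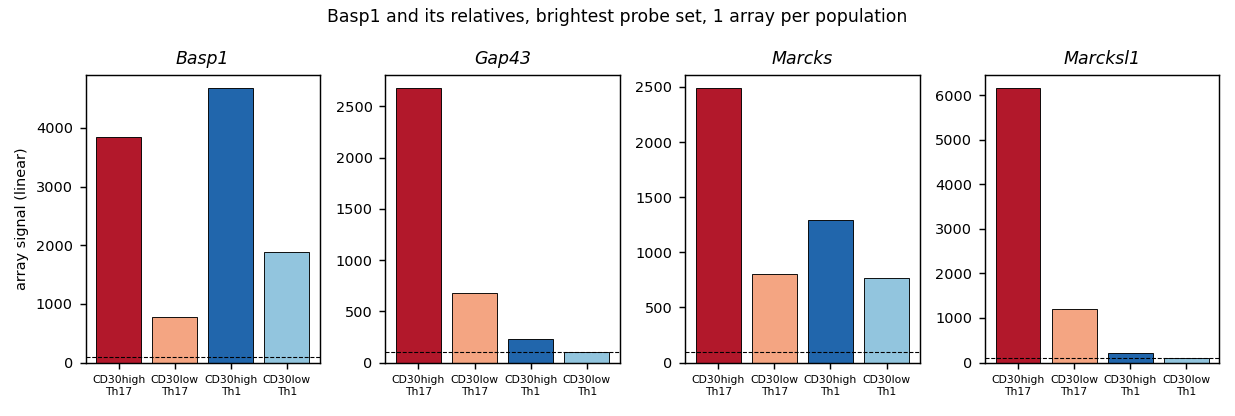
Array signal (linear, from 0, brightest probe set, each gene on its own axis) of Basp1, Gap43, Marcks and Marcksl1 on the CD30high Th17, CD30low Th17, CD30high Th1 and CD30low Th1 arrays, 1 array per bar, with a dashed line at 100. Each gene is highest in CD30high Th17 cells except Basp1, which is highest in CD30high Th1 cells at 4678.

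Ermn encodes ermin, an actin-binding protein best known from myelinating oligodendrocytes (chr2:58045115-58052864). Set 1436578_at gave 9317 in CD30high Th17 cells, 1799.6 in CD30low Th17 cells, 1604 in CD30high Th1 cells and 727 in CD30low Th1 cells. Set 1440902_at gave 3156, 618, 478 and 245 in the same order. The gene was highest in CD30high Th17 cells and lowest in CD30low Th1 cells by both sets. The sets were 5.18-fold and 5.11-fold higher in CD30high than in CD30low Th17 cells, so they differed by little. In Th1 cells they were 2.21-fold and 1.95-fold higher in CD30high than in CD30low cells, 1 set on each side of the rule, and with each array centred on its median the log2 ratio of the brighter set was 0.91, short of the rule. By lineage they were 5.81-fold and 6.60-fold higher in Th17 than in Th1 cells among CD30high cells, and 2.48-fold and 2.52-fold higher among CD30low cells.

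No marker of myelinating cells passed the fold rule between the gates. The oligodendrocyte markers summed to 6941 in CD30high Th17 cells, 8326 in CD30low Th17 cells, 7748 in CD30high Th1 cells and 10704 in CD30low Th1 cells. Mog, Mag and Mobp were below 100 on all arrays. The sums came mainly from Cnp, at 5590.5 and 6469 in CD30high and CD30low Th17 cells, and Mbp, at 1228 and 1721. Both had lower signals in the CD30high gate of each lineage, short of the rule. The ERM proteins and membrane linkers, which tie actin to the membrane and whose name recalls ermin, did not differ past the rule for any of 10 genes. Moesin (Msn) gave 11286 in CD30high and 13124 in CD30low Th17 cells. Over all genes 3.94% were higher and 3.66% lower in Th17 cells, so nothing is read from so few genes.

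In the comparison of lineages, Dab2, Mylk and Ermn were higher in Th17 than in Th1 cells among CD30high cells (3 of 8 tested, against 4.98% of 7979 genes) and none was lower (0 of 8, against 6.86%). Among CD30low cells Myo6, Dab2 and Ermn were higher in Th17 cells (3 of 7, against 3.53% of 7857) and Myo1f and Basp1 were lower (2 of 7, against 5.83%). Median centring moved the median log2 ratio of all genes to 0.40 among CD30high and 0.21 among CD30low cells, and the share of called genes that were higher to 79.7% and 64.9%, in place of 42.1% and 37.7%. Under that scaling Basp1 and Pdlim5, neither past the rule, changed sign among CD30high cells (0.14 and 0.20, in place of -0.28 and -0.22), and Fscn1 passed the rule as higher in Th17 cells in both gates. No member past the rule changed direction under either scaling.

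**Figure D4:**
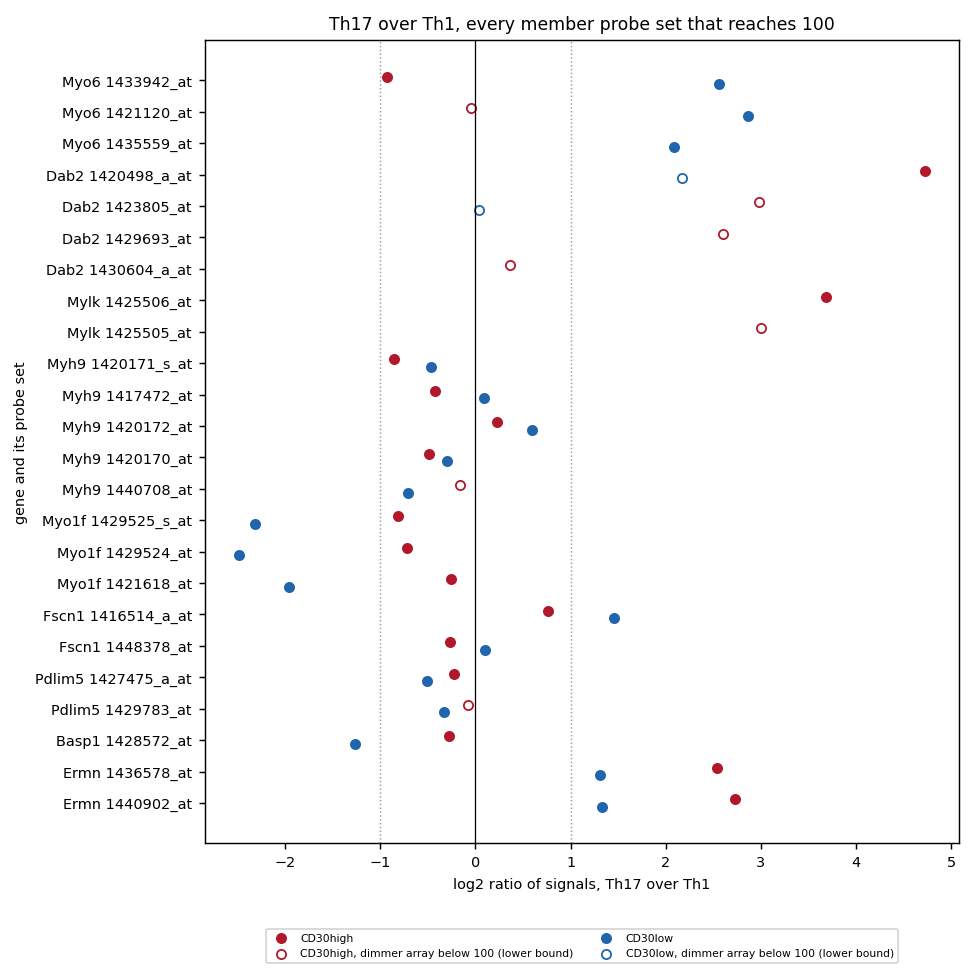
Log2 ratio of Th17 over Th1 signals for every member probe set that reaches 100, among CD30high (red) and CD30low cells (blue), with hollow points where the dimmer array lay below 100 and the ratio is a lower bound, and dotted lines at 2-fold. Both Ermn sets pass 2-fold in both gates, whereas all 3 sets of Myo6 (higher) and of Myo1f (lower) do so among CD30low cells only.

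The CD30 log2 ratio in Th17 cells minus that in Th1 cells was 1.502 for Myo1f, 1.23 for Ermn, 0.99 for Basp1, 0.29 for Pdlim5, -0.38 for Myh9, -0.69 for Fscn1 and -3.49 for Myo6. None of these differences was tested. Myo6 and Pdlim5 were lower and Basp1, Ermn and the bright Fscn1 set higher in CD30high cells of both lineages, whereas Dab2, Mylk and Myo1f passed the rule in Th17 cells alone. Signals of Dab2 and Mylk in Th1 cells were too near background for a ratio to be measured, and the Th1 log2 ratio of Dab2, 0.38 at a floor of 100, was 1.07 at a floor of 50.

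Across 12 lists of cytoskeletal genes without the members, 151 genes were found. In Th17 cells 106 of them reached 300, of which 6 were higher (5.66%, against 3.94% of all genes) and 3 lower (2.83%, against 3.66%), and their median log2 ratio was -0.10 against 0.017 over all genes. In Th1 cells 103 reached 300, with 1 higher and 1 lower (0.971% each, against 0.794% and 0.486%), and a median of -0.09 against 0.0003. The higher genes in Th17 cells were Myo10, Myh11, Lpp, Marcks, Marcksl1 and Gap43, and the lower ones Mylip, Pdlim4 and Evl. In Th1 cells they were Eps8, higher, and Mylip, lower. The lists were chosen with earlier results of these data known, so nothing is read from their shares. Without the MARCKS and GAP43 list, the list medians lay between -0.42 and 0.35 in Th17 cells and between -0.25 and 0.08 in Th1 cells. No gene of the lists for actin turnover, the Arp2/3 complex, formins and tropomyosins, and uropod and polarity genes passed the rule in either lineage. In each lineage 13, 16, 8 and 9 genes of these lists, in that order, reached 300. Tmsb4x, thymosin beta-4, which holds actin monomers, gave 44947 and 50823 in CD30high and CD30low Th17 cells and 65658 and 68262 in CD30high and CD30low Th1 cells. Arpc2, an Arp2/3 subunit, gave 24309 and 25848.5 in CD30high and CD30low Th17 cells, and the tropomyosin gene Tpm3 gave 18786.5 and 21677. The intermediate filament gene Vim gave 45025 and 42139 in CD30high and CD30low Th17 cells and 56187 and 54039 in CD30high and CD30low Th1 cells. The brightest genes of these 4 lists thus differed by less than 2-fold between the gates.

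**Figure D5:**
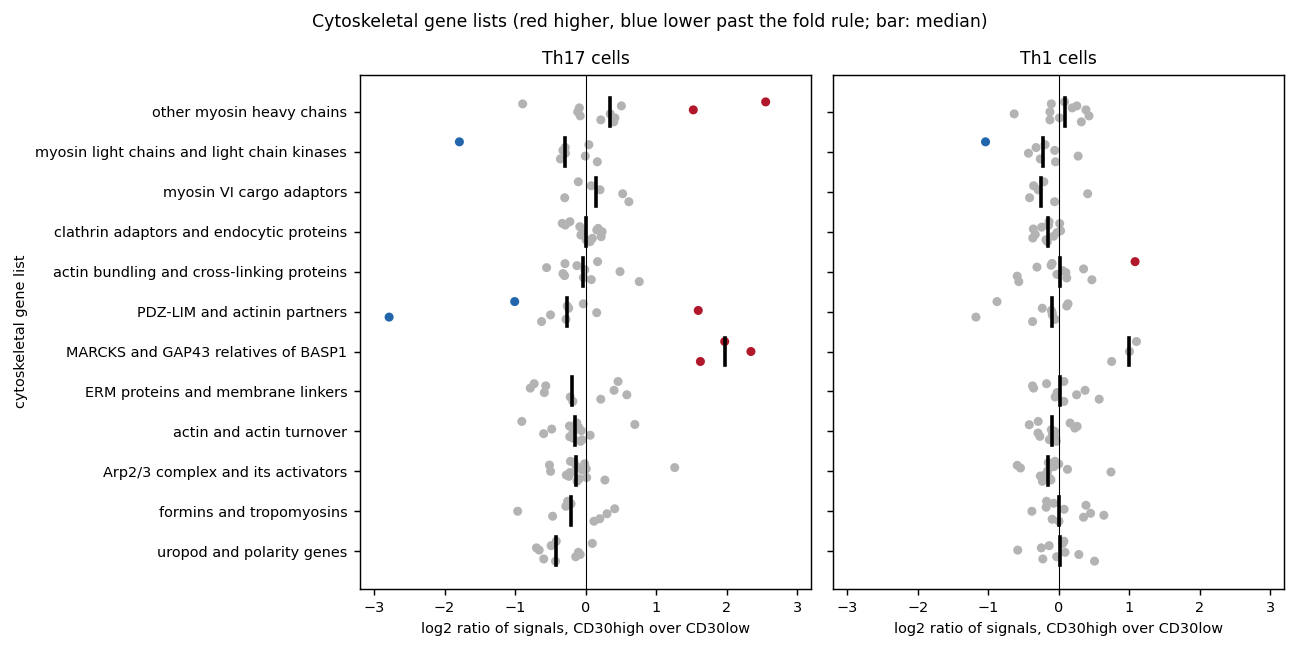
Log2 ratio of CD30high over CD30low signals for the genes of 12 cytoskeletal lists that reach 100, in Th17 cells (left) and Th1 cells (right), members left out, with red points for genes higher and blue points for genes lower past the fold rule and a bar at each list's median. The MARCKS and GAP43 relatives of Basp1 are the 1 list with every gene past the rule in Th17 cells, with a median of 1.97. That list has 3 genes and, like the others, was chosen with earlier results of these data known. Grey points beyond 2-fold belong to genes under a signal of 300.

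Markers of other cells differed between the arrays. Neutrophil markers summed to 2201 in CD30high Th17 cells, 8554 in CD30low Th17 cells, 234 in CD30high Th1 cells and 89.9 in CD30low Th1 cells, highest in CD30low Th17 cells as the Myo6 signal was. In Th1 cells, where Myo6 was also higher in the CD30low gate, 6 of 6 of these markers were below 100. S100a8, a calprotectin subunit, gave 1209.9 in CD30high Th17 cells against 5192 in CD30low Th17 cells, S100a9, its partner, gave 527 against 2017, and the granule genes Ngp and Camp gave 295 against 1072 and 61.1 against 208. The granule genes Mpo and Elane were below 100 on all arrays. In CD30high Th17, CD30low Th17, CD30high Th1 and CD30low Th1 cells, the sums were 609.6, 441, 475 and 348 for macrophage markers, and 212, 187, 202 and 239.8 for dendritic cell markers. In the same order they were 557, 235, 315 and 215 for B cell markers, 388, 536, 711 and 589.8 for endothelial markers, and 848, 726, 419 and 469 for mast cell and basophil markers. Of the last list, Mcpt8, a basophil protease, gave 470.2 in CD30high Th17 cells, 85.7 in CD30low Th17 cells and under 10 in both Th1 populations, at least 4.70-fold higher in CD30high Th17 cells and so high on the array where Mylk was high. Kit and Fcer1a, receptors of the same mast cell and basophil list, were below 100 in CD30high Th17 cells. They gave 113 and 151 in CD30low Th17 cells and so ran opposite to Mcpt8. Cpa3 was alike on all arrays, at 227 and 301 in CD30high and CD30low Th17 cells and 244 and 238 in CD30high and CD30low Th1 cells. Ms4a2 was below 100 throughout. The T cell markers summed to 45556, 56389.8, 56316 and 71190.4 in CD30high Th17, CD30low Th17, CD30high Th1 and CD30low Th1 cells, with 6 of 6 above 100 on every array. The part of other cells in the member signals was not tested.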

How the data were processed

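RNA of 4 sorted cell populations had been labelled with biotin and hybridized to Affymetrix Mouse Genome arrays, 1 array per population. As deposited, the intensity values were on a linear scale, 1 per probe set and array. The study's methods name the GeneChip Operating Software as their source, while the processing notes name Affymetrix Expression Console. Versions, algorithm and scaling target are not given in the sources used here. Their mean without the lowest and highest 2% of signals was between 496.6 and 497.0 on every array, so total RNA levels were in effect set equal, which hides any shift that most genes share. The table held 45037 probe sets without detection calls. Gene symbols of the platform annotation were brought up to date by gene identifier with RefSeq GRCm38.p6 (34741 of 34945 probe sets with 1 symbol matched, 932 had several symbols and 9160 were unnamed here).

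The highest mean signal over the arrays chose the probe set of a gene, the floor was 100, and a call needed 2-fold and a signal of 300. No p-value was computed. The members, the 12 cytoskeletal lists and the 10 marker lists (228 entries, 211 found) were chosen with earlier results of these data known, and 1 further list is not reported here. Named genes were the members, list genes past the fold rule in a CD30 comparison, otherwise the brightest gene of a list, and the 5 genes nearest to Myo6 and to Mylk. Alternatives covered array scaling, the floor, the probe set, the fold limit and the signal limit. The calling script was tested on simulated data. Scripts ran under Python 3.11.15 with pandas 2.3.3, numpy 2.4.6 and matplotlib 3.10.9. Precision is limited by the 4 arrays.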

Additional observations from a re-analysis of the deposited data

Results flagged for a closer look

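The CD30 ratio of Myo1f, the class I myosin of leukocytes, stood out because it ran in opposite directions in the 2 lineages. Its log2 ratio of CD30high over CD30low signals was 1.25 in Th17 cells and -0.25 in Th1 cells by the brightest probe set, a difference of 1.502. The second set gave 1.39 in Th17 and -0.38 in Th1 cells, whereas the third gave 1.78 in Th17 and 0.08 in Th1 cells, so the opposite sign in Th1 cells was not shared by all 3 sets. With 1 array per population the difference between the lineages was not tested.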

How the results depend on the processing

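Under the 9 alternatives no member changed direction past the fold rule. Of 180 single log2 ratios of members, 134 moved by less than the spread between probe sets of a gene, 46 moved by more and none past the rule changed sign. In Th17 cells the members lower in CD30high cells came to 1, Myo6, in place of 2, with a floor of 200, with probe sets averaged, with a fold limit of 3 and with a signal limit of 1000. In Th1 cells a fold limit of 3 left 1 member higher in CD30high cells, Fscn1, in place of 3, and 1 lower, Myo6, in place of 2, and a signal limit of 1000 also left 1 lower, Myo6. By lineage, a fold limit of 1.5 counted 3 members as lower in Th17 than in Th1 cells among CD30high cells, Myo6, Myh9 and Myo1f, in place of 0, and a fold limit of 3 left 1 lower among CD30low cells, Myo1f, in place of 2. The other counts stayed within 1.5 times. No paired analysis was possible because no population had more than 1 array, and no array could be left out. Signals of Mylk, Dab2 and the dimmer Myo6 sets near or below 100 limit some of their ratios to lower bounds. The cause of these shifts was not tested.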
